A study of Mus musculus with 9 samples.

Results

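The alpha cell transcription factors described here are 4 mouse genes, Irx1, Irx2, Pou3f4 and Etv1, chosen by name. Every window assigned to them in the deposited table was used, which gave 5 of 17641 windows, 2 for Etv1 and 1 for each of the other genes. Called peaks within 5 kb of the 4 genes were read from the 6 deposited peak lists. Chromatin immunoprecipitation sequencing (ChIP-seq) had been carried out with an antibody labelled H3K9me3, which names trimethylation of lysine 9 on histone H3. The groups were alphaTC1 cells, a mouse glucagon-producing line, 5 days after transduction with an empty vector (n = 2 libraries), alphaTC1 cells 5 days after transduction with an shRNA against Smndc1, a gene for a splicing factor (n = 2), and untreated betaTC3 cells, a mouse insulin-producing line (n = 2). The betaTC3 cells had received no vector, so line and transduction cannot be told apart in comparisons between the lines. Both lines come from pancreatic tumours of mice that carry a viral T antigen. The labels name no separate cultures for replicates, so p-values measure the spread between these libraries, which may be technical.

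Alpha and beta cells of the islet share a precursor and differ in the transcription factors that hold their hormone programme. Irx1 and Irx2 encode homeodomain proteins of the Iroquois family and are expressed in alpha cells of the mouse. Pou3f4 encodes a POU homeodomain protein, also called Brain-4, that binds the glucagon promoter. Etv1 encodes an ETS domain protein of the PEA3 group, known from neuronal development. H3K9me3 is known for marking silent chromatin, where factors of another lineage are kept off.

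The signal sat largely near gene starts, with 11562 of the 17641 windows (65.5%) no more than 1 kb from the start of their assigned gene. Ribosomal protein genes, which every cell expresses, had such a window in 58 of 76 cases (76.3%, exact 95% interval 65.2 to 85.3). For olfactory receptor genes, most of which are thought to be off in islet cells, the number was 2 of 1106 (0.181%, 0.0219 to 0.652). RNA was not measured here. Among 21900 protein-coding genes the share was 44.1%. This placement goes against what the label H3K9me3 is known for. Which mark the antibody captured was not tested, and the values are called signal below. The libraries held 4530066 to 9924487 reads in windows, with Pearson's r across windows of 0.982 to 0.989 within groups and 0.573 to 0.611 between the lines. For the lines themselves, windows within 2 kb of the starts of 4 beta cell marker genes summed to 697.5 to 1129 in alphaTC1 and to 4559 and 5131 in betaTC3. Those of the alpha cell markers Gcg and Ttr summed to 340.3 to 423.5 and to 123 and 130.2, with Ttr at 0 in both empty-vector libraries and Gcg at 0 in both betaTC3 libraries. Most of the beta cell sum in alphaTC1 came from Nkx6-1 (697.5 to 1129), and Pdx1 and Mafa had at most 11.9 there. Delta cell markers had 1 window, at 0 to 2.65 in alphaTC1 and at 93.3 and 107 in betaTC3, and duct markers 1 window, at 465 to 601 and at 3.99 and 4.76. Acinar, PP and epsilon markers had no window there.

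Values are scaled reads per window, which are whole reads multiplied by a factor per library (0.799 to 1.40). All 5 windows are 401 bp wide, so their levels do not differ through width. Input was not analysed here, so an order of levels between windows is descriptive. The window of Irx1 (ENSMUSG00000060969) lies at chromosome 13, 71962784 to 71963184 (mm10), inside the gene and 939 bp from its start on the reverse strand. That of Irx2 (ENSMUSG00000001504) lies on the same chromosome at 72629139 to 72629539, inside the gene and 319 bp from its start, and the starts of these genes are 665.1 kb apart. The window of Pou3f4 (ENSMUSG00000056854) lies inside the gene on chromosome X, 110814627 to 110815027, at 347 bp from the start. Etv1 (ENSMUSG00000004151) has a start window on chromosome 12, 38781197 to 38781597, at 1817 bp from the start, and a gene body window at 38824887 to 38825287, which is 45.5 kb from the start. Distances run from the first base of the window. Whether these windows are exonic or intronic is not given in the deposited table.

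Promoters of 3 of the 4 members (Irx2, Pou3f4 and Etv1) were matched in RefSeq (GRCm38.p6), each 250 bases before to 50 after the start, on the forward strand. They are shown because the peaks described below cover or interrupt them. CG dinucleotides are in capitals.
Irx2, chr13:72628570-72628869: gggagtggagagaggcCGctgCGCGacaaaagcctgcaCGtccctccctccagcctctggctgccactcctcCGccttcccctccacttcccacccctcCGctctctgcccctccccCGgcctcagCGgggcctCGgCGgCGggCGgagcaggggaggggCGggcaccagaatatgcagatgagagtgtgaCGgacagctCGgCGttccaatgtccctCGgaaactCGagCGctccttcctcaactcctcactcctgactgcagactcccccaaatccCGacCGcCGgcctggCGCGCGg
Pou3f4, chrX:110814129-110814428: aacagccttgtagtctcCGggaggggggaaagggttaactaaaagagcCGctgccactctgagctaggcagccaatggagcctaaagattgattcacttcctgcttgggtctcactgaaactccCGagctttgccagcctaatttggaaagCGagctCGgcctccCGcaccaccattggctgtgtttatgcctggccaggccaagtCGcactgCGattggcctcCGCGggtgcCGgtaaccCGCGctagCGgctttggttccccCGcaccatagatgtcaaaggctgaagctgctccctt
Etv1, chr12:38779832-38780131: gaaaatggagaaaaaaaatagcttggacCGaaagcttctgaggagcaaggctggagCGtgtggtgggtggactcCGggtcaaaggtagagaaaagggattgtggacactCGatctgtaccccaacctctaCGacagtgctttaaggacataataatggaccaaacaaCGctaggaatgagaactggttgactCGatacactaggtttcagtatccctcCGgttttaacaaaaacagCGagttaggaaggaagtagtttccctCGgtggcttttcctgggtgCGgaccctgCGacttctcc
The Irx2 promoter held 25 CG dinucleotides, the Pou3f4 promoter 15 and the Etv1 promoter 12, against a median of 7 in the 32851 promoters of the table. Fewer were held by 81.6%, 65.4% and 60.4% of promoters, so the last 2 counts are common. A second Etv1 start (chromosome 12, 38783461 to 38783760) held 3. Both strands were searched for 7 strings. These were ACANNTGT for Iroquois proteins, ATGCAAAT for POU proteins, CCGGAAGT for ETS proteins, TGTTTAC for forkhead proteins, TAATTA for homeodomain proteins in general, GGGCGG as in general promoter boxes and the common promoter element TATAAA. The Irx2 promoter held GGGCGG at 2 places, and 35.7% of all promoters held it at least once. The second Etv1 start held TATAAA at 1 place, and 13.6% of all promoters held it. The other 5 strings, present in 1.74% to 7.38% of promoters, were not found in these windows, and none of the 7 was found in the Pou3f4 promoter or at the first Etv1 start.

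Signal at Irx1 was high in every alphaTC1 library and close to absent in betaTC3. The window held 1152 and 1189.6 scaled reads in empty-vector cells, 969.9 and 1270.4 after knockdown, and 0.799 and 0 in betaTC3. The alphaTC1 libraries thus lay far above both betaTC3 libraries, which held 1 read between them, and the alphaTC1 groups overlapped. Within their own libraries, these values exceeded 91.5% to 96.9% of windows in alphaTC1 and at most 1.85% in betaTC3. From the pooled reads, the ratio of empty vector to betaTC3 was 2705 (95% counting interval 485 to 106900), and that of knockdown to betaTC3 was 2553 (457.5 to 100900). The intervals cover counting error only. By limma, the log2 difference of betaTC3 was -9.77 from the empty vector (SE 0.30, adjusted p = 6.3e-06) and -9.69 from the knockdown (SE 0.30, adjusted p = 5.7e-06). With so few reads in betaTC3 the size depends on the pseudocount, and the first value was -6.83 with 10 and -11.93 with 0.1.

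Irx2, the neighbour of Irx1 in the Iroquois cluster, kept a clear signal in both lines and was lower in betaTC3. It held 727 and 743 scaled reads in empty-vector cells, 546 and 759 after knockdown, and 311 and 246 in betaTC3. No betaTC3 value overlapped an alphaTC1 value, while the betaTC3 values still exceeded 51.0% and 48.1% of windows in their libraries. The mean was 735 ± 11.5 with the empty vector and 278 ± 46.1 in betaTC3 (SD, n = 2 per group). The log2 difference of betaTC3 by limma was -1.41 from the empty vector (95% confidence interval -1.89 to -0.93, adjusted p = 0.00108) and -1.22 from the knockdown (-1.70 to -0.74, adjusted p = 0.00225).

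Pou3f4 resembled Irx1 at a lower level. It held 353.5 and 341 scaled reads in empty-vector cells, 284 and 366 after knockdown, and 1.60 and 1.90 in betaTC3, where each library had 2 reads. Its alphaTC1 values were near the middle of their libraries, above 50.8% to 56.8% of windows, and its betaTC3 values exceeded 3.01% and 3.10%. The pooled ratio of empty vector to betaTC3 was 199 (77.4 to 733), and that of knockdown to betaTC3 was 185 (72.0 to 683). The log2 differences by limma were -6.99 from the empty vector (SE 0.22, adjusted p = 6.3e-06) and -6.88 from the knockdown (SE 0.22, adjusted p = 5.7e-06). With a pseudocount of 10 the first was -4.93, and with 0.1 it was -7.56.

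Etv1 differed from the other members, with more signal at its start in betaTC3 than in alphaTC1. The start window held 303 and 339 scaled reads in empty-vector cells, 284 and 376 after knockdown, and 490.3 and 549 in betaTC3. Both betaTC3 values lay above all 4 alphaTC1 values, the opposite order to Irx1, Irx2 and Pou3f4. The log2 difference by limma was 0.69 from the empty vector (95% confidence interval 0.28 to 1.11, adjusted p = 0.0137) and 0.66 from the knockdown (0.25 to 1.08, adjusted p = 0.0158). Leaving out either betaTC3 library, or either empty-vector library in the first case, ended the call (adjusted p = 0.0589 to 0.114). Windows of chromosome 12 with a mean of at least 100 scaled reads had a median log2 difference of 0.42 from the empty vector and 0.845 from the knockdown (416 windows). Centred on that chromosome, a choice made after seeing the data, Etv1 stood at 0.24 and at -0.27, with the sign turned in the second case.

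The gene body window of Etv1 ran the other way. It held 18.5 and 35.5 scaled reads in empty-vector cells, 22.7 and 18.2 after knockdown, and 0 and 3.81 in betaTC3. These are 13 to 40 reads per alphaTC1 library and 0 and 4 reads in betaTC3, with no overlap between the lines. The log2 difference by limma was -3.61 from the empty vector (SE 0.73, adjusted p = 0.00564) and -3.28 from the knockdown (SE 0.73, adjusted p = 0.00861). Without empty-vector library 2 the first had an adjusted p of 0.0505, and without knockdown library 1 or 2 the second had 0.0719 or 0.0501. With the scaling as given, the start and gene body windows of Etv1 therefore had called differences of opposite sign in both comparisons. Centred on chromosome 12, both were below 0 against the knockdown, at -0.27 and -4.21.

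**Figure D1:**
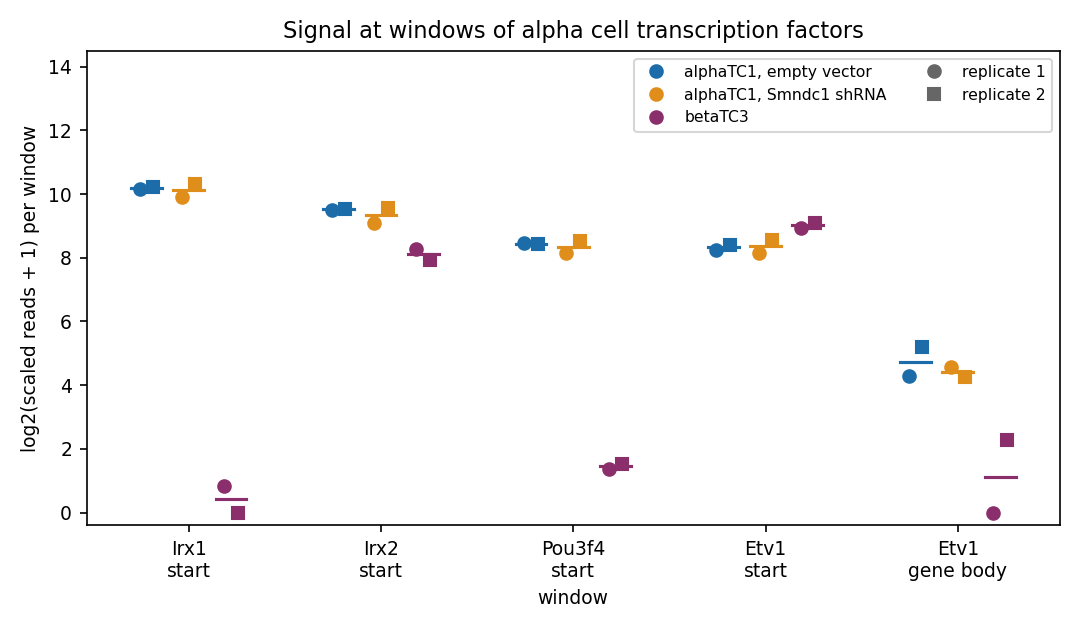
Signal at the 5 windows of the 4 genes, as log2(scaled reads + 1) on the vertical axis, with a point for each library and a bar for the mean of 2 libraries. The betaTC3 libraries lie far below alphaTC1 at Irx1 and Pou3f4, closer below at Irx2, above at the Etv1 start and below at the Etv1 gene body.

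All 5 member windows were called between betaTC3 and the empty vector at an adjusted p below 0.05 by limma, 4 lower and 1 higher, where 55.2% of all windows were called (33.2% lower and 22.1% higher). The lean of all windows towards lower values rests on the scaling. Median centring gave 6050 higher and 5623 lower, edgeR 6225 and 5743, and DESeq2 6073 and 4844, against 3893 and 5851 here. The median log2 difference of the 5 was -3.61, against -0.13 over all windows, which became 0.049 with median centring. The former is the value of the Etv1 gene body, and ran from -1.62 with a pseudocount of 10 to -5.37 with 0.1. Between betaTC3 and the knockdown all 5 were called with the same signs, where 60.6% of all windows were called (24% lower and 36.6% higher), with medians of -3.28 and 0.235. These comparisons share the betaTC3 libraries. The windows are deposited as a peak set. Irx1, Pou3f4 and the Etv1 gene body had called peaks in alphaTC1 lists only, while Irx2 and the Etv1 start had peaks in all 6 lists. Windows of the first kind may have entered the set through the line where they are high. Their calls as lower in betaTC3 are therefore descriptive. The order of levels also changed between the lines. In alphaTC1 with the empty vector it ran from Irx1 through Irx2 and Pou3f4 to the Etv1 start and the Etv1 gene body. Pou3f4 and the Etv1 start were neighbours there, with the nearest values at 341 and 339, and in the knockdown libraries their ranges overlapped. In betaTC3 the Etv1 start stood highest and Irx2 next. Pou3f4, the Etv1 gene body and Irx1 lay at 4 reads or fewer per library, and no order among them can be given.

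After Smndc1 knockdown none of the 5 member windows was called by limma, where 0% of the 17641 windows were called. None of the 5 had an unadjusted p under 0.05 by limma, beside 6169 of the 17641 windows. On whole reads edgeR called 0 of the 5, and 0 of all windows. DESeq2 called 0 of the 4 for which it gave an adjusted p, the Etv1 gene body having none. Over all windows DESeq2 called 10 of 12511. The mean at Irx1 was 1120.1 ± 212 with the knockdown and 1170.7 ± 26.7 with the empty vector (SD, n = 2 per group). At Irx2 it was 652 ± 151 and 735 ± 11.5, and at Pou3f4 325 ± 57.9 and 347 ± 8.91. At the Etv1 start it was 330.1 ± 64.8 and 321 ± 25.4, and at the Etv1 gene body 20.4 ± 3.20 and 27.0 ± 12.003. At the Irx1, Irx2, Pou3f4 and Etv1 start windows the knockdown libraries lay on either side of both empty-vector libraries, with library 1 lowest and library 2 highest.

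The intervals for a knockdown effect remained wide. By limma the log2 difference was -0.08 at Irx1 (95% confidence interval -0.80 to 0.65), -0.19 at Irx2 (-0.67 to 0.29), -0.11 at Pou3f4 (-0.63 to 0.42), 0.03 at the Etv1 start (-0.39 to 0.44) and -0.33 at the Etv1 gene body (-2.08 to 1.43). The median over all windows was -0.37, so each of the 5 stood above it. With libraries centred on their medians the values became 0.30, 0.18, 0.27, 0.40 and 0.05, so the sign of all but the Etv1 start rests on the scaling. A knockdown acts on RNA, and these windows do not check it.

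**Figure D2:**
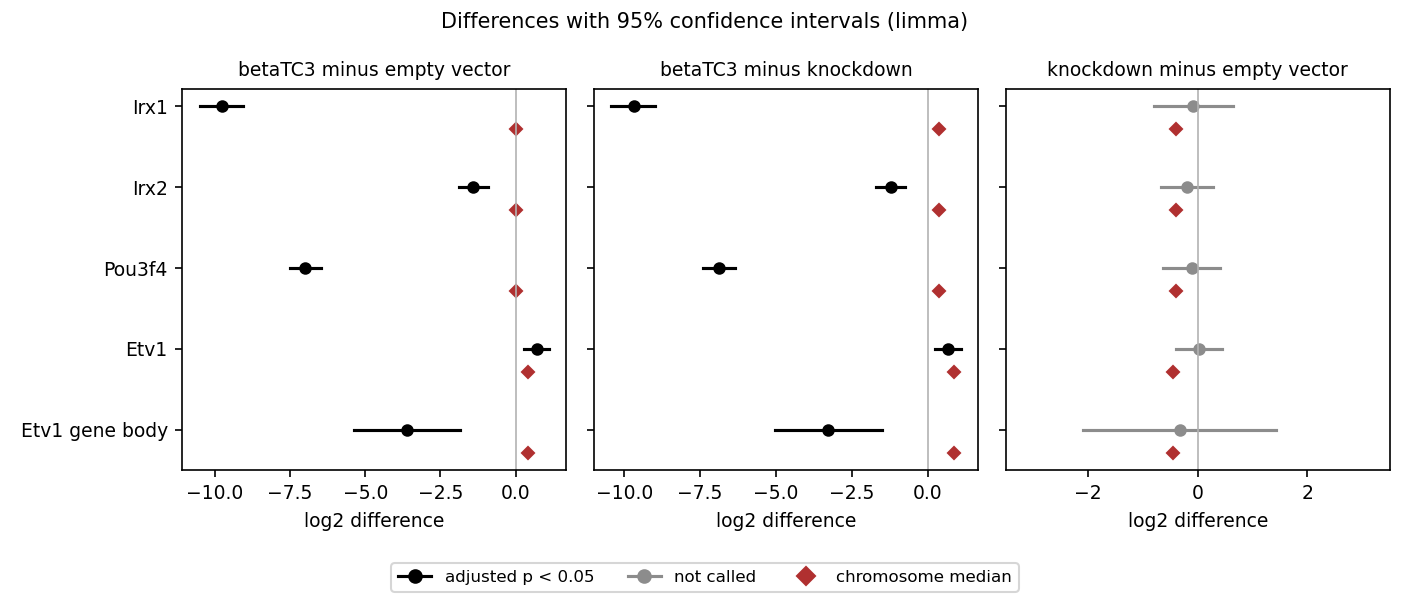
Log2 differences at the 5 windows on the horizontal axis for the 3 comparisons, with 95% confidence intervals from limma and, as red diamonds, the median of windows with a mean of at least 100 scaled reads on the same chromosome. Irx1 and Pou3f4 stand far left of the chromosome median between the lines, while at the Etv1 start the median is close to or beyond the value.

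The called peaks showed how far the signal spread around each gene. At Irx1 a peak of 7.2 and 7.8 kb in the empty-vector lists and of 8.2 kb in both knockdown lists covered the gene to beyond its end. In each list it was wider than 99.8% of the peaks called there, whose median width was 1129 to 1287 bp. No peak was called within 5 kb of Irx1 in either betaTC3 list. Peaks and windows come from the same libraries, so the peaks are not separate support for the window differences.

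At Irx2 the peaks of alphaTC1 were among the widest in their lists. They spanned 13.4 and 15.3 kb with the empty vector and 18.6 kb in both knockdown lists, from 6250 to 6902 bp before the start to beyond the gene end. In the empty-vector lists further peaks followed downstream, up to 11814 and 11890 bp from the start, and in the knockdown lists the same stretch was joined to the main peak. In betaTC3 the peak was 2.3 and 2.5 kb wide and ran from 1312 and 1397 bp before the start to 961 and 1136 bp after it. Irx2 thus kept a peak over its start in all 6 lists, and the broad stretch was called in the 4 alphaTC1 lists. The Irx2 promoter printed above lay wholly under a peak in all 6 lists.

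Pou3f4 was covered by a peak of 3.4 and 4.3 kb with the empty vector and of 5.9 and 5.5 kb with the knockdown, and had no peak within 5 kb in betaTC3. In both empty-vector lists the start given in the window table (110814280) lay between peaks, in a gap of 87 and 143 bp. The RefSeq start of the printed promoter (110814379) lies outside the gap and was under a peak in all 4 alphaTC1 lists. In the printed Pou3f4 sequence the gap spans bases 91 to 177 in the first library and 53 to 195 in the second. A gap of 162 and 166 bp lay at the start of Irx1 given in the table in the empty-vector lists. In both knockdown lists these starts of Irx1 and Pou3f4 were under a continuous peak. Peak borders depend on depth and on the caller's threshold, and no test compared them. The knockdown libraries had the fewest reads in windows, and their lists held 18473 and 18748 peaks against 18059 and 18459 with the empty vector.

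At Etv1 a wide peak began 1187 to 1308 bp before the start in all 6 lists. It reached 12308 and 12347 bp past the start with the empty vector, 14026 and 15228 bp with the knockdown, and 7611 and 8684 bp in betaTC3. The summit lay 666 and 742 bp from the start in betaTC3. In alphaTC1 it lay 4956 and 555 bp from the start with the empty vector and 4997 and 6089 bp with the knockdown. Both Etv1 starts in RefSeq lay under this peak in every list. Small peaks at 44906 to 47039 bp from the start, around the gene body window, were called in the 4 alphaTC1 lists and in neither betaTC3 list.

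**Figure D3:**
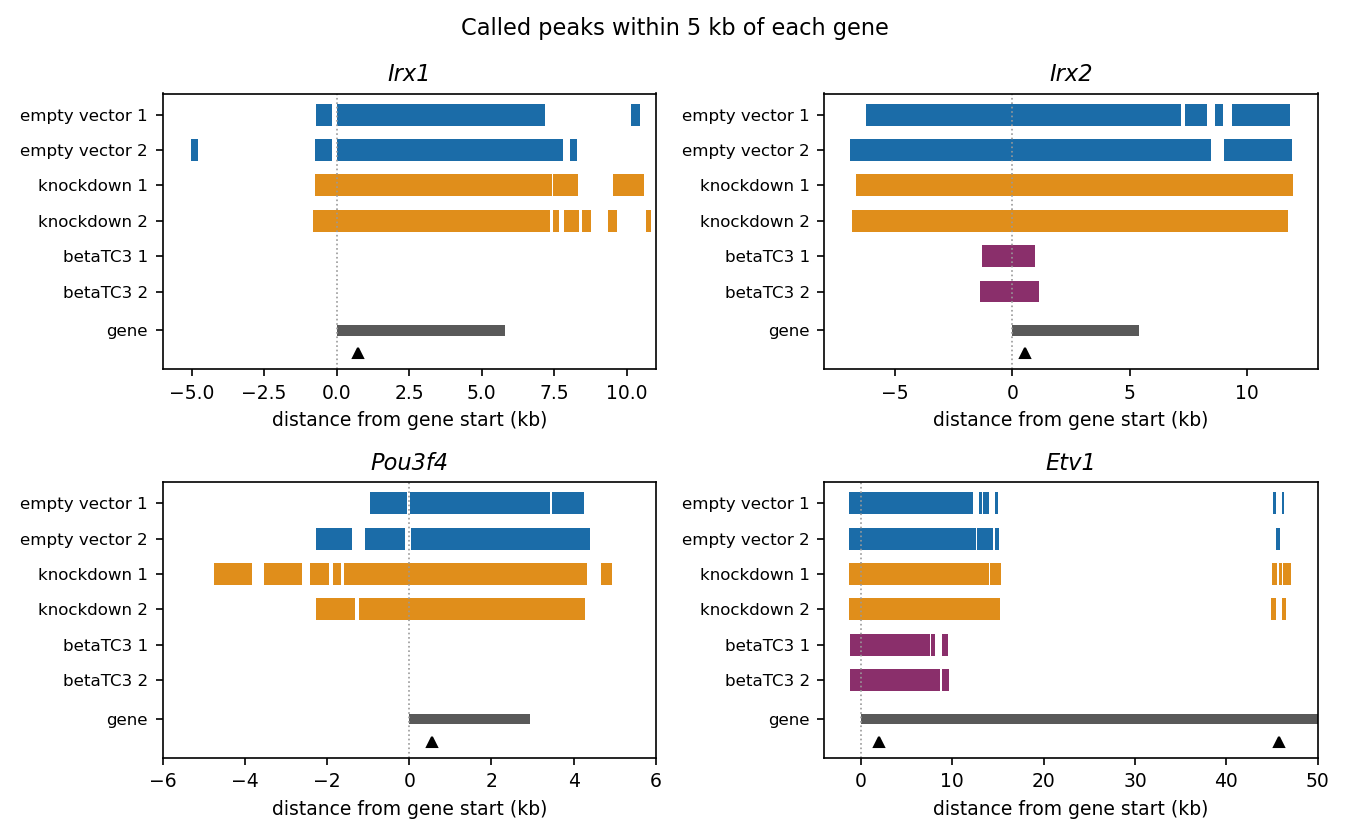
Called peaks (bars) within 5 kb of each gene in the 6 lists, by distance from the gene start in kb, with the gene as a grey bar and the windows of the table as triangles; the Etv1 gene runs on beyond the panel. Irx1 and Pou3f4 have no betaTC3 peak, Irx2 has a short one, and the betaTC3 peak of Etv1 ends nearer to the start than in alphaTC1.

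Other windows within 500 kb of the starts numbered 2 for Irx1, 4 for Irx2, 3 for Etv1 and 0 for Pou3f4. By limma 6 of these 9 were lower and 3 higher in betaTC3 than with the empty vector, against 33.2% lower and 22.1% higher over all windows. Most of them were near 0 in 1 line and may have entered the set through the other line. Their calls between the lines are therefore descriptive. Around Irx1 both windows are assigned to Gm40999, a noncoding transcript beyond the end of Irx1, with centres at 11.5 and 9.9 kb from the Irx1 start. The farther held 21.2 and 10.7 scaled reads in empty-vector cells, 47.8 and 44.7 after knockdown, and 0.799 and 1.90 in betaTC3. Both knockdown values lay above both empty-vector values, with a log2 difference of 1.55 by limma (95% confidence interval 0.56 to 2.55, unadjusted p = 0.00812), which was not called (adjusted p = 0.117). Before Irx2, a window assigned to the noncoding gene Gm20554 with its centre at 7080 bp from the start held 18.5 and 19.5 in empty-vector cells, 26.3 and 30.7 after knockdown, and 0.799 and 0 in betaTC3. Its difference between knockdown and empty vector was not called either (log2 0.56, adjusted p = 0.27 by limma). Of the windows beyond Irx2, that assigned to D730050B12Rik held 32.8 ± 5.14 with the empty vector and 1.20 ± 1.69 in betaTC3 (adjusted p = 0.000852 by limma). Those assigned to Rpl31-ps2 at 440.2 and 489.0 kb had opposite signs, with log2 differences of 3.70 and -4.88.

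Related genes were read from lists of family members and islet genes. In the Iroquois family Irx3 had a window, which held 295 and 326 scaled reads in empty-vector cells, 263 and 309 after knockdown, and 11.2 and 16.2 in betaTC3 (log2 difference of betaTC3 from the empty vector -4.43, adjusted p = 1.34e-05 by limma). Irx4, Irx5 and Irx6 had none. Within 5 kb of Irx4, which lies in the cluster with Irx1 and Irx2, and of Irx6 no list held a peak, while Irx5 had 1 to 3 peaks in all 6 lists. Among POU genes of class 3, Pou3f1 was lower in betaTC3, at 18.9 ± 4.18 against 248 ± 18.7 with the empty vector. Pou3f2 ran the other way at its start, at 742 ± 55.65 in betaTC3 against 2.44 ± 1.575 (adjusted p = 1.41e-05 by limma). This window, near 0 in alphaTC1, may have entered the set through betaTC3, so its call is descriptive. In the PEA3 group both relatives of Etv1 were lower at their starts in betaTC3, Etv4 at 52.3 ± 2.78 against 208 ± 18.9 and Etv5 at 218 ± 0.0619 against 864 ± 23.7, the reverse of Etv1.

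Of 8 other alpha cell genes, 6 had windows, and of their 7 windows 4 were lower and 2 higher in betaTC3 than with the empty vector by limma, with a median log2 difference of -0.73. These 6 calls among 7 windows stand beside 55.2% over all windows, 33.2% lower and 22.1% higher. Slc38a5, which encodes an amino acid transporter, held 241 ± 13.2 scaled reads with the empty vector and 1.83 ± 1.45 in betaTC3. Slc7a2, which encodes a transporter of cationic amino acids, held 1071.6 ± 55.1 and 645 ± 19.55. After knockdown Slc7a2 held 772 ± 176, from which betaTC3 was not called different (log2 -0.24, adjusted p = 0.282 by limma). The higher windows were those of Gc and Ttr, genes for plasma carrier proteins. In these lists, windows near 0 in 1 line, such as those of Slc38a5, Gc and Ttr, may have entered the set through the other line. Their calls are descriptive. Of 9 windows at beta cell transcription factors 6 were higher and 0 lower, beside the same shares over all windows. Of 12 windows at factors shared by endocrine cells 6 were higher and 5 lower. The 5 lower windows, at Foxa2 and Isl1, lay more than 2 kb from the gene starts. Within 2 kb of the starts, 5 windows of the shared factors were higher, 0 lower and 1 not called. Isl1, Insm1 and Rfx6, which act in several islet cell types, were among those higher in betaTC3 at their starts. Between knockdown and empty vector 0 windows of these lists were called. Between betaTC3 and the knockdown, 3 of the 7 windows at other alpha cell genes were lower and 3 higher, beside 24% and 36.6% over all windows.

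**Figure D4:**
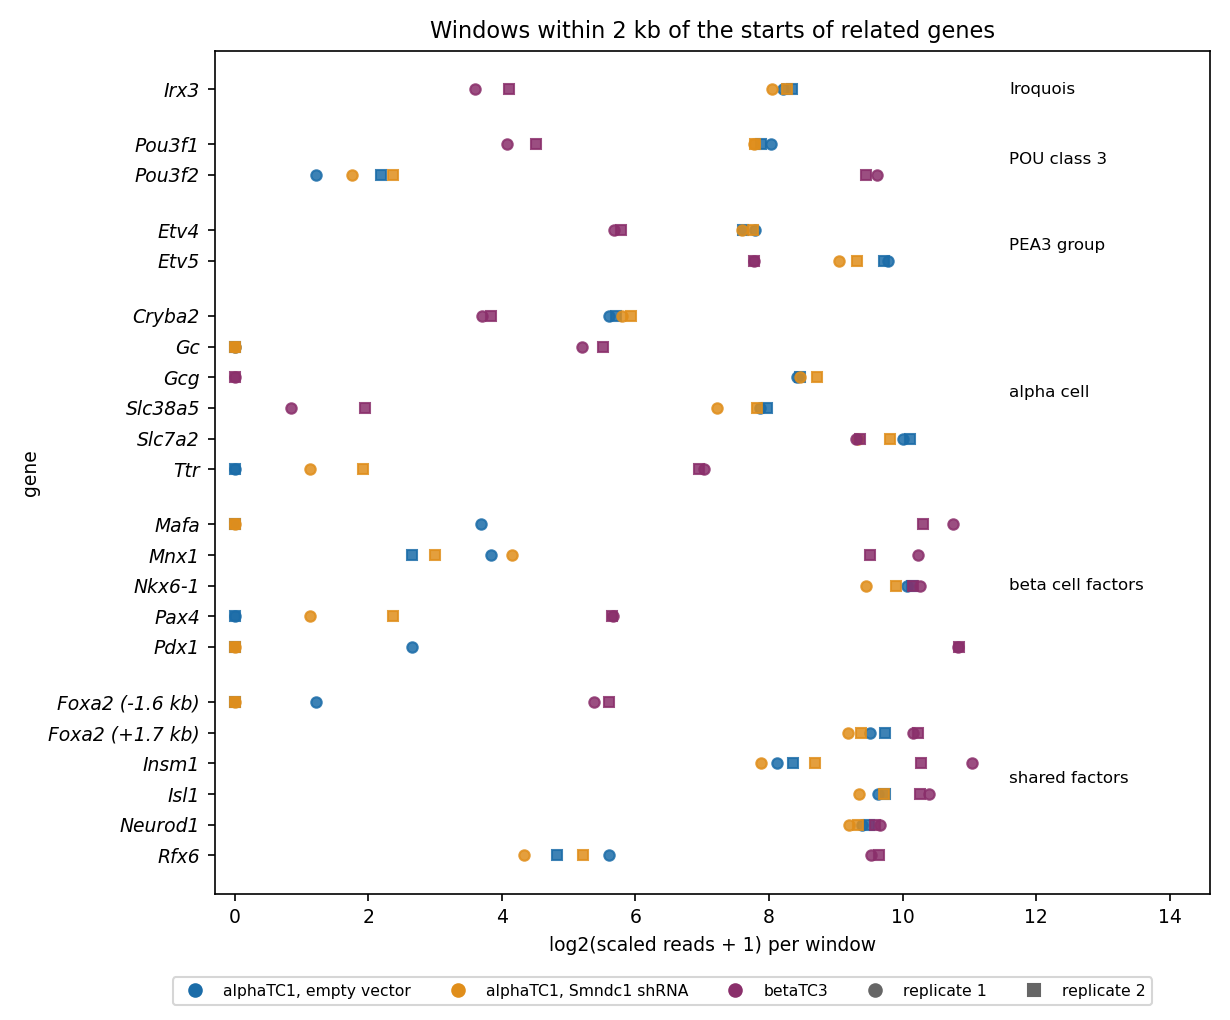
Signal, as log2(scaled reads + 1) on the horizontal axis, at windows within 2 kb of the starts of genes from the related lists, with a point for each library. Irx3, Pou3f1, Etv4 and Etv5 are lower in betaTC3 than in alphaTC1, and Pou3f2 and the beta cell factors other than Nkx6-1 are higher.

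The windows most like each member were found by the Euclidean distance between log2(scaled reads + 1) over the 6 libraries, among 12194 windows of other genes within 2 kb of a gene start. For Irx1 they were those of Gm43573, D16Ertd472e and CT030740.1, at distances of 1.39 to 1.74, each with 852 to 923 scaled reads on average with the empty vector and 0 to 1.20 in betaTC3. For Pou3f4 the nearest was Adamts20, which encodes a metalloprotease, at a distance of 0.41, and held 419.8 scaled reads on average in empty-vector cells, 316 after knockdown and 1.75 in betaTC3. Gm48667 and Gm50063 followed at 0.83 and 0.96. For Irx2 the nearest were Snai2, which encodes a zinc finger repressor, Zfp422 and Kif15, at 0.30 to 0.33. For the Etv1 start they were Epc1, Igtp and Nxn, at 0.25 to 0.30. None of these 12 lies on the chromosome of the member it resembles.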

How the data were processed

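The members and gene lists were chosen with earlier results of these data known. The window table is deposited as a coverage signal in the 6 libraries. Its values were whole reads multiplied by 1 factor per library (100% whole at a tolerance of 0.001), and the sources used here do not state how the authors derived it. The peak lists hold the authors' fold enrichment, score, and −log10 p-value and q-value for peaks called per library, per the file headers. MACS2 2.2.7.1, Bowtie2 2.4.1, Picard 2.19.2 and the build mm10 appear, without their roles, among the submitters' processing notes. The 3 input libraries were not analysed here, and some genes of the lists are not reported here.

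Libraries were compared on log2(scaled reads + 1) with limma 3.58.1 (R 4.3.3), with an intensity trend and 1 fit over all 6 libraries. Benjamini-Hochberg adjustment ran over all 17641 windows, with calls at an adjusted p below 0.05. The procedure was tested on simulated data. Alternatives were median centring, pseudocounts, a filter on low values, no trend, 2 groups at a time, a replicate block, edgeR 4.0.16 and DESeq2 1.42.0 on the recovered whole reads, and each library left out. Centring by chromosome was added after seeing the data. Same-numbered libraries did not deviate together (r of -0.0079, 0.085 and -0.176), so numbers were not used as pairs. Every member window was named. Genes of the lists were named from windows near their starts, and 3 windows most like each member were taken by distance. Intervals of pooled ratios are exact for counting error, and depth is the 4530066 to 9924487 reads in windows.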

Additional observations from a re-analysis of the deposited data

How the results depend on the processing

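Between the lines, Irx1, Irx2 and Pou3f4 kept their sign under all 15 alternatives in both comparisons. They were called whenever each compared group kept both libraries. All alternatives used the same windows and libraries. The windows of Irx1 and Pou3f4 may have entered the set through alphaTC1, so for them this agreement is descriptive. The Etv1 start was called against the empty vector in 11 of 15 (adjusted p 1.22e-06 to 0.111) and against the knockdown in 13 of 15. With 1 library left out, 3 to 5 member windows were called against the empty vector, with 3 when empty-vector library 2 was left out, and 4 to 5 against the knockdown. With the replicate block, 5, 0 and 5 member windows were called in the comparisons of betaTC3 with the empty vector, knockdown with the empty vector and betaTC3 with the knockdown, as without it. Over all 17641 windows the block gave 9152, 0 and 9891 calls.

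The signs for knockdown against empty vector depended on the setting, and none of these values was called. At Irx1 the log2 difference was 0.30 with median centring, 0.30 with edgeR, 0.29 with DESeq2 and 0.35 centred by chromosome. At Irx2 the same settings gave 0.18, 0.19, 0.18 and 0.23, and at Pou3f4 0.27, 0.27, 0.26 and 0.29. At the Etv1 start they gave 0.40, 0.40, 0.39 and 0.50, against 0.03 with the scaling as given. The Etv1 gene body stood at 0.049 with median centring and 0.15 centred by chromosome. Leaving out 1 library gave -0.27 to 0.12 at Irx1, -0.43 to 0.046 at Irx2, -0.29 to 0.077 at Pou3f4, -0.17 to 0.23 at the Etv1 start and -0.78 to 0.13 at the Etv1 gene body. Centred by chromosome, the Etv1 start stood at -0.27 between betaTC3 and the knockdown. Over all windows, knockdown against empty vector had 6169 of 17641 windows at an unadjusted p under 0.05 by limma. It gave 335 calls with a pseudocount of 0.1, 163 without the trend, 31 with only those 2 groups, 10 with DESeq2, 0 with edgeR, and 0 to 6281 with 1 library left out, the highest without knockdown library 2. Between betaTC3 and the knockdown, calls over all windows ran from 6523 (without betaTC3 library 1) to 11055 with 1 library left out, and to 12394 with edgeR. The cause of these changes was not tested. The sizes at Irx1, Pou3f4 and the Etv1 gene body are limited by the few reads there in betaTC3, where a library held 0 to 4. The betaTC3 libraries held 9924487 and 7198683 reads in windows, more than either knockdown library. Whether depth bears on the few reads at these windows was not tested.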
